A study of Homo sapiens with 24 samples.

Results

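Histone genes were examined for peaks of 3 subunits of the SWI/SNF chromatin remodelling complex: BRG1, BRM and SNF5. A peak belonged to the set when the file named a histone gene as its nearest transcription start site (TSS), and names of pseudogenes ending in P or PS and a number were left out. This gave 89 of 51504 BRG1 peaks, 71 of 22157 BRM peaks and 21 of 6489 SNF5 peaks. They carried 62 names in all, of which 3 are no protein-coding genes in RefSeq: the antisense RNA H1FX-AS1 and the pseudogenes HIST2H2BC and HIST3H2BA. Genes were counted over the 89 protein-coding histone genes of RefSeq, with a peak or without. Of these, 55 lay in 3 clusters on chromosome 6, 14 in 2 clusters on chromosome 1 and 20 outside them. A cluster was a run of histone genes with neighbours at most 500 kb apart. Genes are called here by the names the files use, such as HIST1H2AC.

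The study used RWPE1, a line of benign human prostate epithelial cells, infected with lentivirus carrying either the long noncoding RNA SCHLAP1 or LACZ as a control and selected in 2.5 ug/mL blasticidin for a week or longer. All 3 subunits were precipitated from the SCHLAP1 cells, whose chromatin had been cut with MNase, so no LACZ control stands beside these lists. The labels give 2 samples for each subunit and the files 1 list for each, with no value per sample. Histone marks and inputs of SCHLAP1 and LACZ cells were not analysed here. A list gives the position and width of each peak and no read count or score, so the depth behind it is unknown and neither a width nor a missing peak measures an amount of protein. BRG1 peaks named 5 of 6 basal epithelial marker genes, 1 of 4 luminal ones (TMPRSS2) and 2 of 3 blood ones (PTPRC and CD3E), against 63.4% of all protein-coding genes, so a named peak does not tell the cell type.

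Histones are the proteins around which DNA is wound into nucleosomes: H2A, H2B, H3 and H4 form the core, and H1 binds the linker. Most are made from small genes without introns, packed in clusters, that are switched on together when DNA is replicated. Many H2A and H2B genes stand in pairs, transcribed away from each other from a shared stretch of promoter. Replacement variants such as H3.3, H2A.X and H2A.Z are made from single genes outside the clusters, also in cells that do not divide. A SWI/SNF complex holds either BRG1 or BRM as its ATPase, and SNF5 is a core subunit.

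The stretch just before the start is shown for the chromosome 6 cluster gene of each class that had the widest BRG1 peak among those with a RefSeq sequence, since the position of the peaks relative to this stretch is what the results turn on. Each is the 120 bases before the start, read 5′ to 3′ on the gene's strand, from RefSeq (GRCh38.p14). Capitals mark a TATA box (TATAAA) or a CCAAT box (CCAAT) on either strand, so that TTTATA and ATTGG are the same motifs reversed.
HIST1H1E: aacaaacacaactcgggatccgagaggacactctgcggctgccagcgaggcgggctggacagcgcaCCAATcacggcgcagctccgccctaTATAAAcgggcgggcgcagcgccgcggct
HIST1H2AC: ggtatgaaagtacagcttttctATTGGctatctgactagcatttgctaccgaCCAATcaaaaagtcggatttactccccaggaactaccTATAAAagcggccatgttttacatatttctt
HIST1H2BN: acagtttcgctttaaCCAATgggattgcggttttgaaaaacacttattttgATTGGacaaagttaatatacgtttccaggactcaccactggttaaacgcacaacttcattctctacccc
HIST1H3F: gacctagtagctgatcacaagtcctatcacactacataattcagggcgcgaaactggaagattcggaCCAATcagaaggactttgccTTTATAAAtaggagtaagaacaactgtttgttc
HIST1H4D: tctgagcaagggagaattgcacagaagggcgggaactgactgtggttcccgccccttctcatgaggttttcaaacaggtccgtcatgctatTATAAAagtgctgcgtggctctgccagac
HIST1H1E is an H1 gene (chr6:26156209-26156328, plus strand), and its TATA box began 29 bases before the start. HIST1H2AC codes for H2A (chr6:26124052-26124171, plus strand) and had its TATA box 31 bases before the start and CCAAT boxes beginning at 68 and 98 bases. HIST1H2BN codes for H2B (chr6:27838449-27838568, plus strand) and held 2 CCAAT boxes and no TATAAA in this stretch. HIST1H3F codes for H3 (chr6:26250636-26250755, minus strand) and carried TTTATAAA, in which the motif overlaps its own reverse. HIST1H4D codes for H4 (chr6:26189113-26189232, minus strand) and had a TATA box alone.

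Over 300 bases (250 before to 50 after the start), TATAAA was found in 48 of 81 histone genes with a RefSeq window (59.3%), against 11.5% of all 35116 RefSeq promoter windows. CCAAT was found in 69 of 81 histone genes (85.2%), against 34.6% of all windows. The octamer ATTTGCAT, whose reverse is ATGCAAAT, was found in 27 of 81 histone genes (33.3%), against 1.77% of all windows. Histone genes of the clusters differed among themselves by class. The octamer was in 14 of 18 H2B and 11 of 16 H2A genes, in 1 of 12 H3 genes, and in 0 of 6 H1 and 0 of 12 H4 genes. All H1, H2A, H2B and H3 genes of the clusters with a window held CCAAT, and 3 of 12 H4 genes did. These matches describe letters in a window, not bound sites.

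A peak named 54 of the 89 histone genes in the BRG1 list (60.7%, 95% interval 49.7 to 70.9), against a background of 63.4% of 20037 protein-coding genes. BRM peaks named 55 of 89 (61.8%, 50.9 to 71.9), against 49.5% of all protein-coding genes, and SNF5 peaks 18 of 89 (20.2%, 12.4 to 30.1), against 19.6%. By this count the shares for BRG1 and SNF5 were near the background, and the BRM interval lay above it. Both readings depend on how a peak is tied to a gene. Counted by a RefSeq start inside a peak, BRG1 had 25 of 81 histone genes (30.9%, 21.1 to 42.1), against a background of 53.6%, BRM 39 of 81 (48.1%, 36.9 to 59.5), against 41.8%, and SNF5 7 of 81 (8.64%), against 8.97%. The BRG1 interval then lay below its background and the BRM interval held its own. All intervals are exact (Clopper-Pearson) binomial ones. They cover counting error only and treat genes or peaks as independent, which neighbours in a cluster are not, so they are no test.

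The counts were then split by region. On chromosome 6, BRG1 named 38 of 55 genes (69.1%), BRM 40 (72.7%, 59.0 to 83.9) and SNF5 12 (21.8%). On chromosome 1, BRG1 and BRM each named 5 of 14 genes (35.7%, 12.8 to 64.9), and SNF5 named 0 of 14, which allows a share of up to 23.2%. Outside the clusters, BRG1 named 11 of 20 genes (55%), BRM 10 (50%) and SNF5 6 (30%). By this count, only for BRM on chromosome 6 did the interval exclude the background share of the same list. Counted by starts inside a peak, the interval for BRM on chromosome 6 held its background (52%, 37.4 to 66.3, against 41.8%). The BRG1 interval lay below its own background on chromosome 6 (26%, 14.6 to 40.3, against 53.6%) and on chromosome 1 (3 of 14, 21.4%, 4.66 to 50.8). Outside the clusters the BRG1 interval held that background (9 of 17, 52.9%, 27.8 to 77.0).

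**Figure D1:**
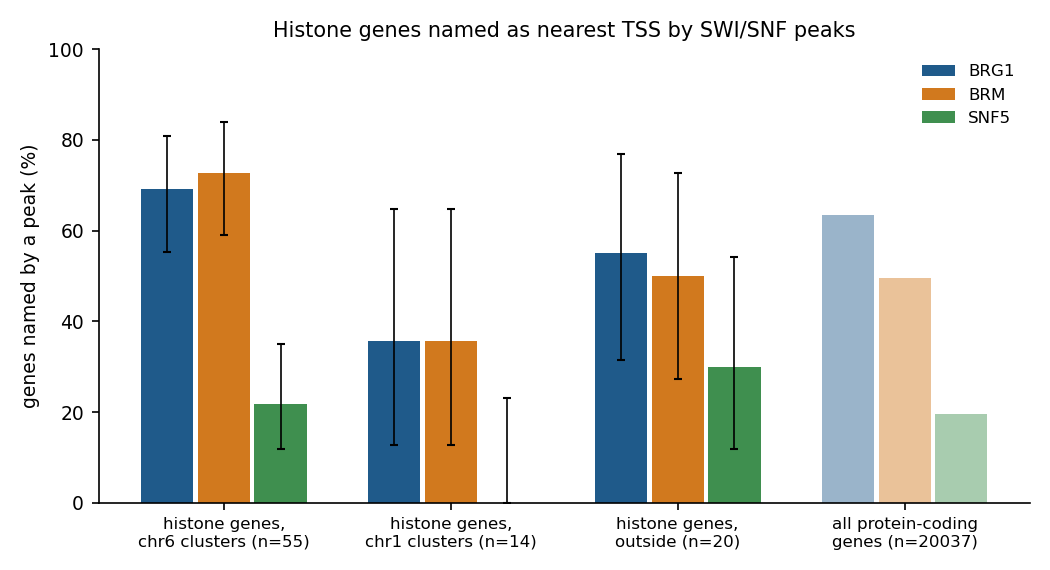
Share of genes (%) named as nearest TSS by at least 1 peak of each subunit, for histone genes of the chromosome 6 clusters (55), the chromosome 1 clusters (14) and outside (20), and for all 20037 protein-coding genes (pale bars). Error bars are exact 95% binomial intervals of counting error; SNF5 named none of the 14 chromosome 1 genes.

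The 12 germline histone genes, which are known from testis or oocytes, had no named peak in any list (0 of 12, interval up to 26.5%). They are HIST1H1T, HIST1H2AA and HIST1H2BA on chromosome 6, HIST3H3 on chromosome 1, and H3F3C, H1FNT, H1FOO, H2BFWT, H2BFM, H2AFB1, H2AFB2 and H2AFB3 outside. The background is 63.4% of all protein-coding genes for BRG1, 49.5% for BRM and 19.6% for SNF5. Of these, the germline interval holds the SNF5 share. H2AFB1, H2AFB2 and H2AFB3 have identical promoter windows, so a missing peak is uncertain there. Without the germline genes, the outside genes stood at 11 of 12 for BRG1 (91.7%, 61.5 to 99.8). The 11 include H2BFS, named by an intron peak 21190 bp from its TSS, and H1F0, named by distal peaks only. For BRM they stood at 10 of 12 (83.3%) and for SNF5 at 6 of 12 (50%). The 66 replication-dependent genes stood at 44 named by BRG1 (66.7%), 46 by BRM (69.7%) and 13 by SNF5 (19.7%). Against the background of 63.4%, 49.5% and 19.6%, the BRG1 and SNF5 shares were near it and the BRM share above it. The 10 replacement variants stood at 9 (90%), 9 (90%) and 5 (50%), against the same background and from few genes. That background holds all 20037 protein-coding genes, germline ones among them. It is thus no like set for the shares without germline genes, which a cut on 1 side can raise.

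Taken gene by gene, 16 histone genes were named in all 3 lists, 34 by BRG1 and BRM without SNF5, 4 by BRG1 only (H2BFS, HIST1H2BE, HIST1H3E and HIST1H2BL), 3 by BRM only and 2 by BRM and SNF5. The 3 named by BRM only were HIST1H4C, HIST1H2BK and HIST1H2AK, and the 2 with BRM and SNF5 were HIST1H3A and HIST1H2BC. These combinations were not counted over all protein-coding genes, so whether their numbers are unusual is not known. A peak names 1 gene, so a gene without a name is not always free of peaks. HIST1H3A, an H3 gene, lay wholly inside the 1844 bp BRG1 peak that names its neighbour HIST1H4A. Likewise, HIST1H2AK was covered over 97.2% of its span by a 1552 bp BRG1 peak named for HIST1H2BN. Of the 30 histone genes that no list names, 6 had a BRG1 or BRM peak on the gene or within 1 kb.

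By class on chromosome 6, H3 genes were named by BRG1 in 9 of 10 cases and H1 genes in 5 of 6. H2B genes were named in 10 of 15 cases, H2A genes in 7 of 12 and H4 genes in 7 of 12. Among H1 genes, HIST1H1T was the one without a peak, and among H3 genes HIST1H3A, which shares a peak as described. The intervals of all 5 classes overlapped (27.7 to 84.8% for H2A and for H4, 55.5 to 99.7% for H3). Each held the background of 63.4% of all protein-coding genes, so no class stood apart from it.

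Peaks of the histone genes lay mostly at promoters, which the authors' annotation sets at no more than 998 bp from a TSS. The share was 75.3% of histone BRG1 peaks (67 of 89, 65.0 to 83.8), against 37.3% of all BRG1 peaks. For BRM it was 90.1% of histone peaks (80.7 to 95.9), against 62.8% of all, and for SNF5 21 of 21 histone peaks (83.9 to 100%), against 81.3% of all. By region, 49 of 59 histone BRG1 peaks on chromosome 6 were promoter peaks (83.1%, 71.0 to 91.6), 7 of 7 on chromosome 1, and 11 of 23 outside (47.8%, 26.8 to 69.4).

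BRG1 promoter peaks of the chromosome 6 clusters were narrower than the list's promoter peaks as a whole. In the BRG1 list, promoter peaks had a median width of 516 bp on chromosome 6 (interval of the median 439 to 663), 973 bp on chromosome 1 (7 peaks, 335 to 1498) and 1483 bp outside (564 to 2449), against 876 bp for all 19211 BRG1 promoter peaks (864 to 889). BRM promoter peaks had medians of 575 bp on chromosome 6 (471 to 703), 440.5 bp on chromosome 1 (310 to 1161) and 1023 bp outside (581 to 1580), against 638 bp for all. SNF5 peaks had medians of 200 bp on chromosome 6 (164 to 235) and 257.5 bp outside (157 to 496), against 218 bp for all SNF5 promoter peaks. Only the interval for BRG1 on chromosome 6 excluded the median of all promoter peaks of its list.

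**Figure D2:**
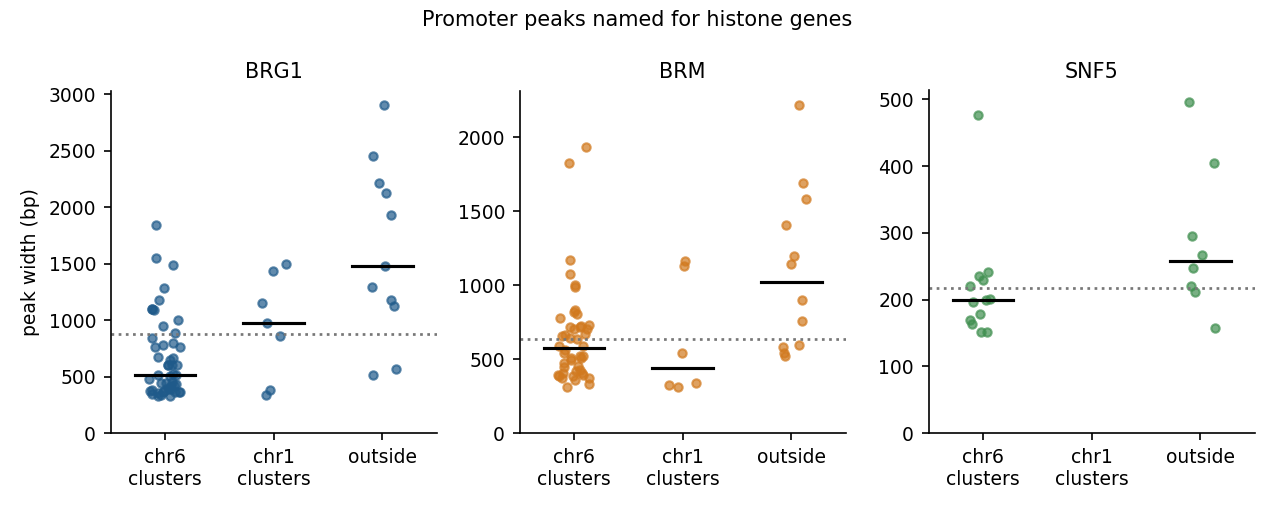
Width (bp) of each promoter peak named for a histone gene, by subunit and region, with black bars for medians and a dotted line for the median of all promoter peaks of that list. BRG1 peaks on chromosome 6 lie mostly below the line at 876 bp, with a median of 516 bp, and those outside the clusters mostly above it, with a median of 1483 bp.

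Histone peaks of the 3 lists often overlapped. Of the 89 histone BRG1 peaks, 61 met a BRM peak by at least 1 bp (68.5%, 57.8 to 78.0), against 35.7% of all BRG1 peaks. Among promoter peaks alone it was 56 of 67 histone BRG1 peaks (83.6%, 72.5 to 91.5), against 61.6% of all BRG1 promoter peaks. Overlap grows with width, and histone peaks were narrow, so it was also counted within widths. At up to 500 bp, 16 of 24 histone BRG1 promoter peaks met BRM (66.7%), against 20.9% of all. Between 500 and 1000 bp it was 19 of 22 histone peaks (86.4%), against 53.3% of all. Over 1000 bp it was 21 of 21 histone peaks, against 90.5% of all. The gap to other promoters was widest among the narrowest peaks. Over 1000 bp the 90.5% of all peaks leaves little room for a gap, so its narrowing with width is no result about histone peaks.

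SNF5 met 18 of 67 histone BRG1 promoter peaks (26.9%, 16.8 to 39.1), against 21.2% of all, a difference inside the interval. Within widths, it was 3 of 24 histone peaks of up to 500 bp (12.5%), against 2.27% of all. Between 500 and 1000 bp it was 4 of 22 histone peaks (18.2%), against 633 of all 6325, and over 1000 bp 11 of 21 histone peaks (52.4%), against 40.1% of all. The histone share was the higher at each width, from few peaks. In the other direction, 21 of 21 histone SNF5 peaks lay on a BRM peak and 20 of 21 on a BRG1 peak. The exception was the 151 bp SNF5 peak of HIST1H2BC (chr6:26123747-26123897), an H2B gene without a BRG1 peak on it. Histone BRM peaks met BRG1 in 63 of 71 cases (88.7%, 79.0 to 95.0), against 92.2% of all BRM peaks.

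BRG1 peaks of the chromosome 6 cluster genes lay over the transcribed gene and often ended just short of its RefSeq start. On chromosome 6, a BRG1 peak covered the start of 13 of 50 genes (26%, 14.6 to 40.3), against a background of 53.6% of protein-coding genes with any RefSeq start in a BRG1 peak. The position 250 bp into the gene was covered in 35 of the same 50 genes (70%, 55.4 to 82.1). Over all 15842 protein-coding genes, with 1 start taken for each, BRG1 covered the start in 49.7% and the position 250 bp into the gene in 52.2%. Of the 35 chromosome 6 genes covered at 250 bp, 13 were covered at the start as well (37.1%, 21.5 to 55.1), against 88.6% of the protein-coding genes so covered (7331 of 8271). On chromosome 1 it was 3 of 5 genes (60%, 14.7 to 94.7), and outside the clusters 7 of 8 (87.5%, 47.3 to 99.7). Both intervals hold the 88.6%, from few genes. On chromosome 6 a RefSeq start was at hand for 50 of the 55 genes. HIST1H4A, HIST1H4C, HIST1H2AH, HIST1H3I and HIST1H3J had no entry.

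The missing stretch was short. In the 22 chromosome 6 genes with BRG1 at 250 bp and not at the start, the peak began a median of 54.5 bp inside the gene (8 to 159 bp), against 59 bp in the 940 protein-coding genes of the same kind. The difference lay in how many genes showed such an edge. HIST1H2AC starts at position 26124172, and its 1086 bp BRG1 peak ran from 8 bp further in (chr6:26124180-26125265), past the end of the promoter stretch printed above. In HIST1H4D the 949 bp BRG1 peak (chr6:26188154-26189102) began 10 bp inside the gene and covered 97.5% of it. In HIST1H3F the edge lay 31 bp inside and in HIST1H2BN 15 bp. HIST1H1E was different, since its 1492 bp BRG1 peak (chr6:26155611-26157102) covered the start and all 120 bases printed above. In HIST1H2AC, HIST1H4D, HIST1H3F and HIST1H2BN the files' own TSS lay further in. It was 517, 445, 500 and 139 bp from the middle of the BRG1 peak, against 550, 484, 533 and 234 bp for RefSeq. Each shift exceeds the missing stretch, so these peaks cover the files' TSS. In HIST1H4B and HIST1H2AE this held too (159 and 296 bp, against 193 and 352 bp, with edges 11 and 14 bp inside). In HIST1H2BG, HIST1H2BF, HIST1H2BI and HIST1H2BH the shift fell short of the missing stretch, so the peaks there miss the files' TSS as well. The distances were 253, 330, 292 and 372 bp, against 252, 336, 339 and 411 bp for RefSeq. The edges lay 56, 79, 128 and 108 bp inside. Coverage of the files' TSS was not counted over the chromosome 6 genes or over all genes. The contrast depends on this short distance and on the RefSeq starts. With a peak within 100 bp of the start counted as well, 62% of the 50 genes had BRG1 there, and likewise 62% had BRM. Of the 35 genes covered at 250 bp, 31 then had BRG1 at the start (88.6%), against 96.7% of the protein-coding genes so covered.

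Narrow peaks miss a start more easily, and the contrast was therefore set within widths of the peak at 250 bp. At up to 500 bp, 2 of 13 chromosome 6 histone genes were also covered at the start (15.4%), against 49.8% of 613 protein-coding genes. Between 500 and 1000 bp it was 5 of 13 histone genes (38.5%), against 81.6% of 1997. Over 1000 bp it was 6 of 9 histone genes (66.7%), against 95.3% of 5661. The histone genes were lower at each width.

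For BRM the shares were nearer those of all genes. BRM covered the start of 26 of 50 chromosome 6 genes (52%, 37.4 to 66.3), against a background of 41.8% of protein-coding genes with any start in a BRM peak, and the position 250 bp into the gene in 34 (68%). Of those 34 genes, 25 had BRM at the start too (73.5%, 55.6 to 87.1), against 83.0% of protein-coding genes, a share the interval holds. SNF5 covered 4 of 50 starts (8%, 2.22 to 19.2), against a background of 8.97%: those of HIST1H3A, HIST1H1E, HIST1H3H and HIST1H4L. Whether the start shares of BRG1 and BRM differ was not tested, as the lists differ in length and antibody and have no replicates.

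**Figure D3:**
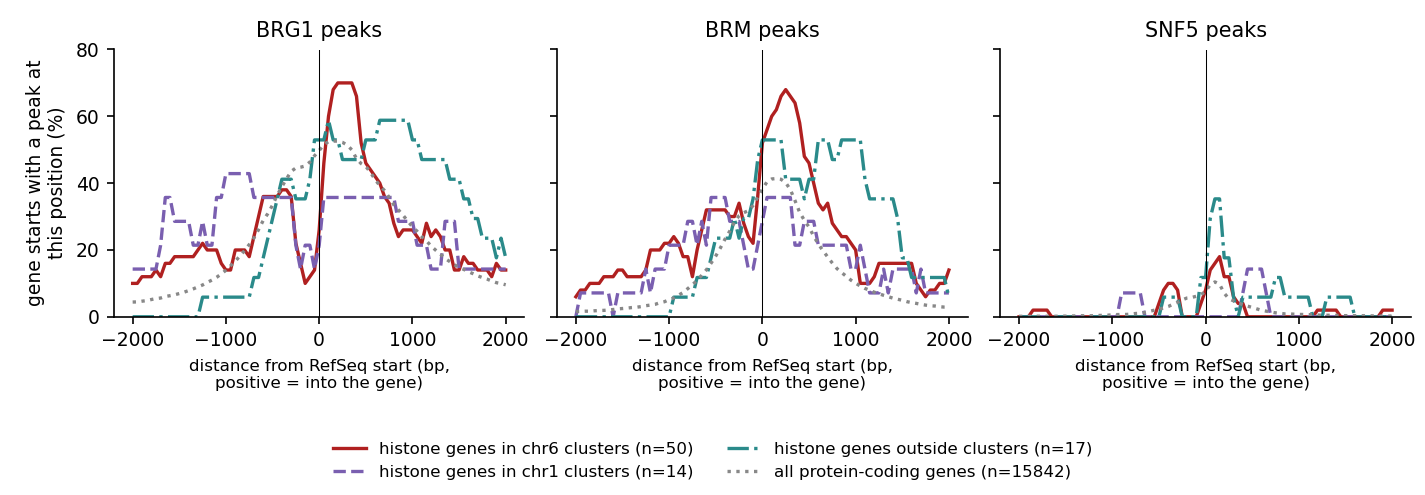
Share of genes (%) with a peak at each position from 2000 bp before to 2000 bp after the RefSeq start, for histone genes of the chromosome 6 clusters (n = 50), the chromosome 1 clusters (n = 14) and outside (n = 17), and for all protein-coding genes (n = 15842). In the BRG1 panel the chromosome 6 line climbs from 26% at the start to 70% at 250 bp, while that of all protein-coding genes is at 49.7% and 52.2%.

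Most small genes with a BRG1 or BRM peak lay largely inside it. Of 47 chromosome 6 histone genes of up to 1 kb, germline genes left out, 36 were covered over at least 50% of their length by BRG1 and 11 not at all. BRM covered 34 of the 47 over at least 50%, 2 in part and 11 not at all. Where present, the median covered share was 93.8% for BRG1 and 93.0% for BRM. No BRG1 peak of the list is narrower than 331 bp and no BRM peak narrower than 310 bp, so a peak on a gene this short covers much of it in any case. SNF5 covered 3 of the 47 over at least 50%, 8 in part and 36 not at all, with a median of 42.0% where present and a narrowest peak of 151 bp. The middle of promoter peaks lay downstream of the start, in some cases past the end of the gene, in 37 of 44 BRG1 peaks on chromosome 6 (median 292.5 bp over all 44), in 38 of 41 BRM peaks (297 bp) and in 11 of 11 SNF5 peaks (150 bp). How often this holds among all promoter peaks was not counted. In all protein-coding genes coverage was also highest past the start. The maximum lay at 100 bp in the SNF5 list, 150 bp with BRM and 200 bp with BRG1. By middle, SNF5 stood nearest the start on chromosome 6, but its promoter peaks there were also the narrowest. Their median width was 200 bp, against 516 bp in BRG1 and 575 bp in BRM. A narrow peak has its middle closer to its edge, so the middles do not order the subunits by position.

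The divergent pairs, most of them chromosome 6 genes already counted above, show the starts from both sides. They are no separate support, and divergent pairs of other protein-coding genes were not counted. RefSeq has 11 H2A/H2B pairs in the clusters whose starts face away from each other at 194 to 248 bp (median 236). BRG1 peaks covered part of a gene in 9 pairs and of both genes in 7, and no BRG1 peak spanned both starts. In 4 of those 7 pairs the stretch between the starts held no BRG1 peak: HIST1H2AD/HIST1H2BF, HIST1H2BG/HIST1H2AE, HIST1H2BJ/HIST1H2AG and HIST1H2AK/HIST1H2BN. At HIST1H2BJ/HIST1H2AG, BRG1 covered 93.5% of HIST1H2BJ and 73.8% of HIST1H2AG and 0% of the 248 bp between them. At HIST1H2AM/HIST1H2BO, BRG1 covered both genes and 47.7% of the 240 bp between.

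BRM covered part of both genes in 8 of the 11 pairs, though only 1.25% of HIST1H2BJ and 5.04% of HIST1H2BC, and left the stretch between free in 1, HIST1H2AK/HIST1H2BN. It filled that stretch in 3 pairs, with 1 peak over both starts: HIST3H2A/HIST3H2BB, HIST1H2BJ/HIST1H2AG and HIST1H2AM/HIST1H2BO, the last by a peak of 1829 bp. The median covered share of the stretch over the 11 pairs was 32.8% for BRM and 0% for BRG1. SNF5 touched a gene in 4 pairs and the stretch between in none. No peak of any list lay on HIST1H2AA/HIST1H2BA, a germline pair, or HIST1H2AJ/HIST1H2BM. In RefSeq HIST1H3D shares the start of HIST1H2AD, so that pair stands under both names. A further pair, HIST1H3F/HIST1H2BH, has its starts 979 bp apart. BRG1 covered 0% of that stretch and BRM 13.6%.

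**Figure D4:**
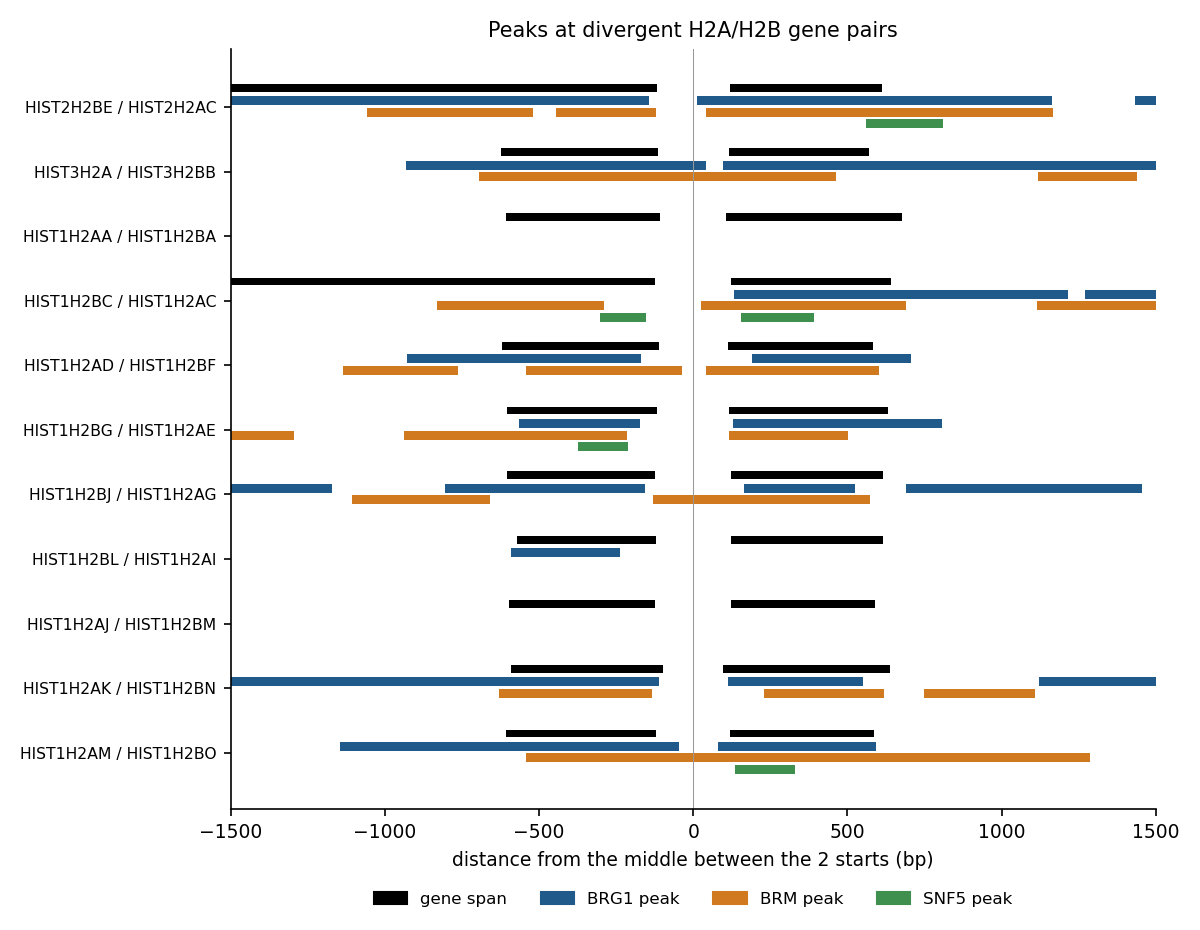
The 11 divergent H2A/H2B pairs, aligned at the middle between their starts (bp), with gene spans in black above the peaks of BRG1, BRM and SNF5, cut at 1500 bp on either side. BRG1 peaks lie on the genes and leave all or part of the middle open in each pair, while 3 BRM peaks run across it.

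The genes with SNF5 peaks on chromosome 6 came from all classes. HIST1H4L, an H4 gene, had the widest at 477 bp (chr6:27873108-27873584), which covered the whole gene, under a BRG1 peak of 663 bp and a BRM peak of 707 bp. HIST1H3A had 2 SNF5 peaks, of 200 and 221 bp, which covered 75.8% of the gene. HIST1H2AC had 1 of 235 bp (chr6:26124205-26124439) that began inside its BRG1 peak. The other 9 genes were HIST1H1A, HIST1H2BC, HIST1H1E, HIST1H4E, HIST1H2BG, HIST1H2AH, HIST1H3H, HIST1H3I and HIST1H2BO, with peaks of 151 to 241 bp. The narrowest SNF5 peak of the whole list is 151 bp wide, and the peaks of HIST1H1A and HIST1H2BC stand at that floor.

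On chromosome 1 the named genes sat at the end of the first cluster and in the small second one. HIST2H2BE, an H2B gene, had a BRG1 peak of 1438 bp, HIST2H2AC 1 of 1153 bp and HIST2H2AB 1 of 861 bp. HIST2H2AC and HIST2H2AB are H2A genes that run towards each other, and the 1153 bp peak (chr1:149886811-149887963) covered 100% of HIST2H2AC and 99.6% of HIST2H2AB. In the second cluster HIST3H2A had a BRG1 peak of 973 bp and HIST3H2BB 1 of 1498 bp. SNF5 named no gene here, but a SNF5 peak of 249 bp named for BOLA1 (chr1:149887361-149887609) lay on HIST2H2AC and HIST2H2AB.

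**Figure D5:**
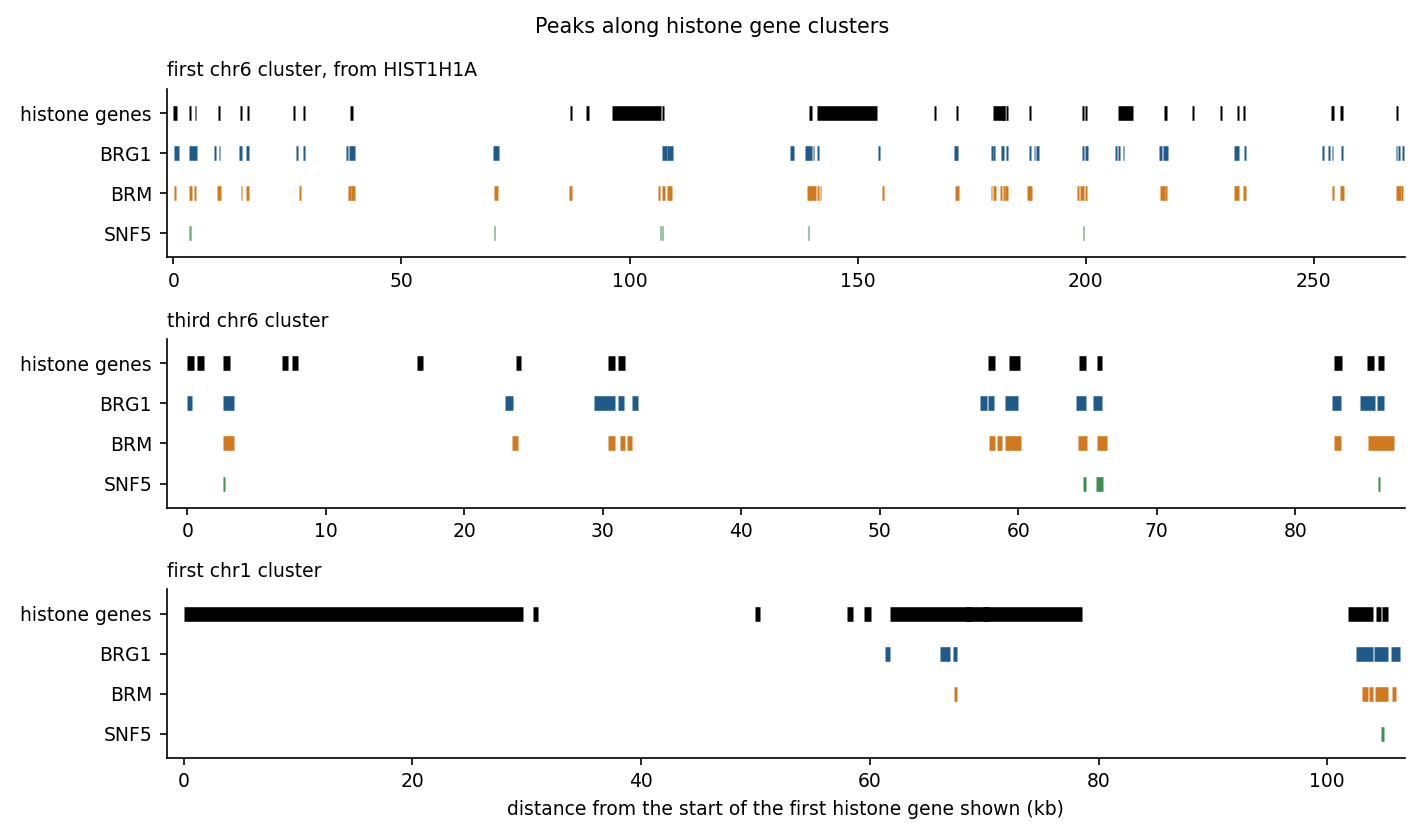
Histone genes (black) and peaks of the 3 subunits along the first chromosome 6 cluster from HIST1H1A on, the third chromosome 6 cluster and the first chromosome 1 cluster, as distance (kb) from the first histone gene shown. Peaks follow the genes on chromosome 6, and on chromosome 1 most stand at the right end, over HIST2H2BE, HIST2H2AC and HIST2H2AB.

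The other genes of the first chromosome 1 cluster had no named peak in any list: HIST2H2BF, HIST2H3D, HIST2H4A, HIST2H3C, HIST2H2AA3, HIST2H4B, HIST2H2AA4 and HIST2H3A. Within the long RefSeq span of HIST2H4B, away from its start, lay BRG1 peaks of 909 and 386 bp named for AC239868.2 and HIST2H2BC. Of the 8 genes, 6 are near-identical copies. The 120 bases before the start of the H4 genes HIST2H4A (chr1:149832537-149832656, plus strand) and HIST2H4B (chr1:149861160-149861279, minus strand) show it, with no letter in capitals since neither motif occurs in this stretch.
HIST2H4A: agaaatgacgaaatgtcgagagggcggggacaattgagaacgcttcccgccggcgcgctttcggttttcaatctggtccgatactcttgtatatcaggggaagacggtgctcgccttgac
HIST2H4B: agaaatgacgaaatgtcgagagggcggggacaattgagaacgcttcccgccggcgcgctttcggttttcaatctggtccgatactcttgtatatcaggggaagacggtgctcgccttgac
Every 50-base word of the 300-base windows of this pair occurs again in another RefSeq window. For HIST2H3C and HIST2H3A it was 98.4% of words and for HIST2H2AA3 and HIST2H2AA4 99.6%. Sequencing reads from such copies cannot be placed on 1 of them, and how the authors treated such reads is not given in the sources used here. A gene without a peak is therefore uncertain here, and the part of the copies in the low share on chromosome 1 was not tested. Without these 6 genes, a choice made after seeing the data, BRG1 and BRM each named 62.5% of the chromosome 1 genes, against 35.7% with them. On chromosome 6, HIST1H2BL, HIST1H2AI, HIST1H2AJ and HIST1H2BM share 17.5% of words with other windows, and HIST1H4J and HIST1H4K 37.5%. Of those 6, HIST1H2BL had a BRG1 peak and HIST1H4K a BRG1 and a BRM peak.

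The other chromosome 6 genes without a named peak were HIST1H2BB, HIST1H4F, HIST1H4G, HIST1H4I and HIST1H2AM. HIST1H2AM was covered by BRG1 and BRM peaks named for its neighbours. The 446 bp BRG1 peak named for HIST1H2BE (chr6:26171585-26172030) lay outside that gene's RefSeq span (chr6:26183761-26184230), so the name may stand for another transcript.

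Outside the clusters, the widest peaks were those of the replacement variants. H3F3A, which codes for H3.3, carried a BRG1 peak of 2903 bp (chr1:226061300-226064202). Its BRM peak was 2221 bp wide, and it had SNF5 peaks of 405 and 296 bp. The BRG1 peak covered the start and the 120 bases before it (chr1:226061711-226061830, plus strand), which hold neither TATAAA nor CCAAT and are shown for contrast with the cluster genes.
H3F3A: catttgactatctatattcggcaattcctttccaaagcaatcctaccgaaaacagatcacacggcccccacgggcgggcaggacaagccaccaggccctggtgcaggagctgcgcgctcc
H3F3B, the second H3.3 gene, had a BRG1 peak 1178 bp wide, a BRM peak 1144 bp wide and a SNF5 peak 267 bp wide. H2AFX, which codes for the H2A.X of the DNA damage response, had a BRG1 peak of 2127 bp over 100% of the gene. On the same gene lay a 1694 bp BRM peak and SNF5 peaks 496 and 248 bp wide. H2AFV, the second H2A.Z gene, had a BRG1 peak 1125 bp wide, with BRM at 520 bp and SNF5 at 157 bp. The neighbours HIST4H4 and H2AFJ on chromosome 12 were also named in all 3 lists, with widest BRG1 peaks of 1296 and 1927 bp and SNF5 peaks of 211 and 220 bp.

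The macroH2A genes, whose proteins carry a large extra domain, had wide ATPase peaks without SNF5. H2AFY was named by 7 BRG1 peaks, the widest of 2449 bp, and 3 BRM peaks, and H2AFY2 by a BRG1 peak of 2216 bp and a BRM peak of 1580 bp. H1FX, a linker variant, had 564 bp for BRG1 and 542 bp for BRM. H1F0, a linker histone of cells that have stopped dividing, was named only by distal peaks: 331 and 361 bp for BRG1 and 324 bp for BRM. H2BFS, an H2B gene on chromosome 21, was named by 1 BRG1 peak, annotated as intron, 21190 bp from its TSS. H2AFZ, the first H2A.Z gene, is the variant that no list named. Its start lay in a BRG1 peak of 965 bp named for AC097460.1, beside another of 905 bp. Of the 9 variants with a RefSeq start, BRG1 covered the start in 9 and BRM in 8 and SNF5 in 3. Over all protein-coding genes the shares were 53.6%, 41.8% and 8.97%, and 9 genes are few. The SNF5 list holds no peak on the X chromosome, where 5 of the germline genes lie.

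Genes that serve histone production were mostly named by BRG1. Of 34 genes for histone gene transcription, 3′ end processing and histone chaperoning, BRG1 named 31 (91.2%), against the 63.4% of all protein-coding genes, BRM 22 (64.7%), against 49.5%, and SNF5 7 (20.6%), against 19.6%. The 16 transcription and processing genes stood at 14, 8 and 3, and the 18 chaperones at 17, 14 and 4. NCBP1, of the cap-binding complex, had the widest BRG1 peak among those with SNF5 at 4528 bp. ANP32E, an H2A.Z chaperone, had 2530 bp and 3 SNF5 peaks, NAP1L1 2214 bp, DAXX, an H3.3 chaperone, 1866 bp, YY1 1543 bp and SUPT6H 1382 bp. NPAT, the activator of replication-dependent histone genes, was named by no peak, but its start lay in a BRG1 and in a BRM peak. CPSF3, which cuts histone pre-mRNA, was also unnamed, with its start in a BRG1 peak, and ATRX had no named peak.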

How the data were processed

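RWPE1 cells were cross-linked for 30 min in 0.3% formaldehyde before chromatin immunoprecipitation, per the labels' protocols. The 24 samples form 12 groups of 2. The submitters' processing notes name Bowtie2, SAMtools, MACS2, deepTools 2.5.2 and the build hg38. Not given in the sources used here were the peak threshold, any pooling of replicates and the handling of reads that map to several places. Per the file headers, the deposited lists give each peak's position, width, annotation, nearest TSS and distance, with no score.

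File names were matched to RefSeq (GRCh38.p14), which held the names of 81.5% of peaks in the BRG1 list, 87.0% in the BRM list and 90.4% in the SNF5 list, with older histone names mapped to current ones. Of 89 histone genes, 81 had a RefSeq start. Overlap was 1 bp. No p-value was computed, since there is 1 list a subunit. The routines were tested on simulated data. Members and lists were chosen with earlier results of these data known. Described were genes with SNF5 peaks, the widest BRG1 peak of each class, genes outside the clusters, unnamed genes and copies. The deciding measure, coverage of the start against 250 bp inside, was chosen after the lists were seen. Scripts ran in Python 3.11.15 with pandas 2.3.3, numpy 2.4.6, matplotlib 3.10.9 and scipy 1.17.1. Alternatives varied how peaks are tied to genes, peak width, promoter distance, overlap and the gene list.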

Additional observations from a re-analysis of the deposited data

How the results depend on the processing

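No paired analysis was possible because each subunit has 1 list with no value per replicate, and for the same reason no replicate could be left out. Of 89 alternative values, 64 stayed within counting error or within 1.5 times the count, and 25 moved. Counting only starts inside a peak gave 25 histone genes for BRG1 and 7 for SNF5, and on chromosome 6 26% for BRG1, 52% for BRM and 8% for SNF5. The wider 50% of each list named 31 genes for BRG1, 32 for BRM and 9 for SNF5. The 6489 widest peaks of each list named 7 genes for BRG1 and 18 for BRM. On chromosome 6 this was 3.64% for BRG1 and 18.2% for BRM, for BRG1 0% on chromosome 1 and 25% outside. The 6489 peaks are a smaller part of the 51504 BRG1 peaks than of the 22157 BRM peaks. Shares over all protein-coding genes were not counted at these cuts by width, so 7 against 18 is no result about histone genes. Without germline genes, an alternative chosen after seeing the data, the outside shares were 91.7% for BRG1 and 83.3% for BRM. The background was not cut in the same way. Promoter shares were 56.2% for BRG1 and 66.2% for BRM at 500 bp, and 88.8% for BRG1 and 98.6% for BRM at 3000 bp. BRG1 peaks met BRM in 41.6% and SNF5 in 3.37% at a reciprocal overlap of 50%, and BRM in 83.1% within 1 kb. For these promoter distances and overlaps, shares of all peaks were not counted either. Also chosen after seeing the data were the counts of chromosome 6 starts, with 62% for BRG1 where a peak within 100 bp counts and 2% for SNF5 in the wider 50%. The cause of each shift beyond the stricter or looser count was not tested. Pairs with both starts in 1 peak stayed at 0 for BRG1, 3 for BRM and 0 for SNF5 with starts at most 500 bp apart.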

Other observations

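Most peaks in the chromosome 6 clusters named histone genes. The first chromosome 6 cluster, of 34 histone genes, held 44 BRG1 peaks, of which 39 named histone genes, 2 histone pseudogenes and 3 other genes. The other 3 were TRIM38, U91328.2 and HFE, the iron regulator, whose BRG1 peak was 1142 bp wide and met a SNF5 peak of 151 bp. All 14 BRG1, 12 BRM and 4 SNF5 peaks of the third chromosome 6 cluster named histone genes. Per 100 kb there were 15.8 BRG1, 13.6 BRM and 4.52 SNF5 peaks in this cluster, against 1.76, 0.758 and 0.252 over the genome. The window was drawn around 16 histone genes in 88413 bp, so a density above the genome mean comes with that choice. It is no result about the peaks. In the first chromosome 1 cluster, 2 of 6 BRG1 peaks named other genes (AC239868.1 and AC239868.2), as did its 1 SNF5 peak (BOLA1). The other BRG1 peaks and all 5 BRM peaks carried histone names, in each list 1 of them that of the pseudogene HIST2H2BC. Peaks per 100 kb in this cluster, in a window drawn in the same way, were 5.59 for BRG1, 4.66 for BRM and 0.932 for SNF5.

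Names of histone pseudogenes, left out above, stood on 18 BRG1 peaks, 12 BRM peaks and 3 SNF5 peaks. H1FX-AS1, an antisense RNA beside H1FX, was named by 3 BRG1 peaks, of 759, 1638 and 1483 bp. The 1483 bp peak lay on H1FX. Among cluster genes with the octamer in the promoter window, BRG1 covered the start in 5 of 26, against 11 of 38 without it. For BRM this was 14 of 26 with the octamer and 16 of 38 without, and for SNF5 0 of 26 and 4 of 38. The octamer is nearly confined to H2A and H2B genes, so this split is largely one of class. With TATAAA, BRG1 covered 11 of 43 starts and BRM 19, against 5 and 11 of 21 without it. With CCAAT, BRG1 covered 15 of 55 and BRM 26, against 1 and 4 of 9 without it, all H4 genes. SNF5 covered 4 with either motif and 0 without.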
